A study of Homo sapiens with 6 samples.

Results

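The genes described here are those of polyamine metabolism in MDA-MB-231 cells, an established line from a triple-negative breast cancer of the claudin-low type, compared between panobinostat and DMSO. Panobinostat is a hydroxamate inhibitor of histone deacetylases. The members were chosen by symbol: ODC1, AMD1, SRM, SMS, SAT1, SMOX, PAOX, OAZ1, OAZ2 and AZIN1, 10 of the 30051 genes counted. The treated group is 3 libraries of cells given 50 nM panobinostat for 24 h, numbered 1, 2 and 4 in the labels, and the control group is 3 libraries of cells given the solvent DMSO for 24 h, numbered 1, 2 and 3. All 6 come from the same unedited line grown in the same serum-containing medium, and the series' design text calls the repeats of each condition independent. RNA was sequenced from poly(A)-selected stranded libraries, and each value below starts from a count of reads per gene.

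Polyamines are small positively charged molecules that bind nucleic acids and are needed for growth. Ornithine decarboxylase (ODC1) makes putrescine from ornithine, S-adenosylmethionine decarboxylase (AMD1) supplies the aminopropyl groups, and spermidine synthase (SRM) and spermine synthase (SMS) add these groups in turn. On the way back, SAT1 acetylates spermidine and spermine and PAOX oxidises the acetylated forms, while SMOX oxidises spermine directly and releases hydrogen peroxide. The antizymes OAZ1 and OAZ2, made by a polyamine-dependent ribosomal frameshift, bind ornithine decarboxylase and send it to the proteasome, and AZIN1, an inactive relative of that enzyme, binds the antizymes in its place. Much of this control acts on translation and protein turnover, which counts of mRNA do not measure.

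The libraries held 15106148, 5389638 and 6622406 counts in panobinostat replicates 1, 2 and 4, and 11996519, 7113569 and 6514568 in DMSO replicates 1, 2 and 3. Panobinostat replicate 4 stood apart from its group: on the first principal component, which carried 87.5% of the variance, it lay at 18.3, against 62.9 and 63.9 for panobinostat replicates 1 and 2 and −49.1 to −47.6 for the DMSO libraries. Over the genes called with this library included, its median change ran the same way but was smaller. For the 4032 genes called higher, the median log2 change against DMSO was 0.83, 0.82 and 0.48 in panobinostat replicates 1, 2 and 4. For the 3821 genes called lower it was −0.69, −0.69 and −0.32. Values without this library are therefore given beside the members' results. The 7 genes that mark this line, among them VIM, CD44 and AXL, summed to 5534 to 5798 CPM with panobinostat and 6132 to 6207 CPM with DMSO. VIM alone averaged 2870 CPM with panobinostat and 2567 CPM with DMSO. Of the 7, VIM was called higher and CD44 was not called. The other 5, AXL, EGFR, CAV1, ZEB1 and KRT18, were called lower, beside 28.6% of all tested genes. Without panobinostat replicate 4, 2 were called higher and 5 lower. The 8 luminal and epithelial genes expected to be low in this type of line summed to 34.8 to 40.3 CPM with panobinostat and 44.6 to 49.1 CPM with DMSO. They were not all near 0: EPCAM averaged 11.2 and 18.5 CPM, CLDN7 15.6 and 15.5 CPM, and GATA3 5.36 and 11.9 CPM with panobinostat and with DMSO, while CDH1, the epithelial cadherin, had 1 count in all 6 libraries. Of the 4 tested genes of this list, 1 was called higher, 2 lower and 1 was not called, with and without panobinostat replicate 4. Leukocyte markers (3 of 5 listed genes had a row) summed to 1.96 to 3.48 CPM with panobinostat and 0.427 to 0.932 CPM with DMSO, mostly CD14, while PTPRC had at most 2 counts in a library. The 5 fibroblast markers summed to 0.551 to 1.35 CPM and 0.285 to 0.621 CPM. The part of these low signals in the results was not tested.

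With panobinostat, ornithine decarboxylase and the 3 catabolic enzymes rose most, both antizymes rose slightly, both aminopropyl transferases fell slightly, and S-adenosylmethionine decarboxylase and the antizyme inhibitor were not called. All 10 members passed the filter on low counts. Of these, 6 were called higher (ODC1, SAT1, SMOX, PAOX, OAZ1 and OAZ2), 2 lower (SRM and SMS), and 2 were not called (AMD1 and AZIN1), at an adjusted p under 0.05 in edgeR's quasi-likelihood test over all 13341 genes tested. Of all tested genes 30.2% were called higher and 28.6% lower. Without panobinostat replicate 4 the same 6 members were higher and the same 2 lower, where 37.6% of the 13746 genes then tested were higher and 36.9% lower. A rise of at least 2-fold was found for 3 members, ODC1, SAT1 and PAOX, and for 10.9% of tested genes. The panobinostat and DMSO libraries did not overlap for 8 members, which is near the 69.0% of all tested genes. The members' median log2 fold change was 0.34, beside 0.0028 over all tested genes. All RNA came from one cell population per library, so more RNA per cell and more cells that make it cannot be told apart.

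**Figure D1:**
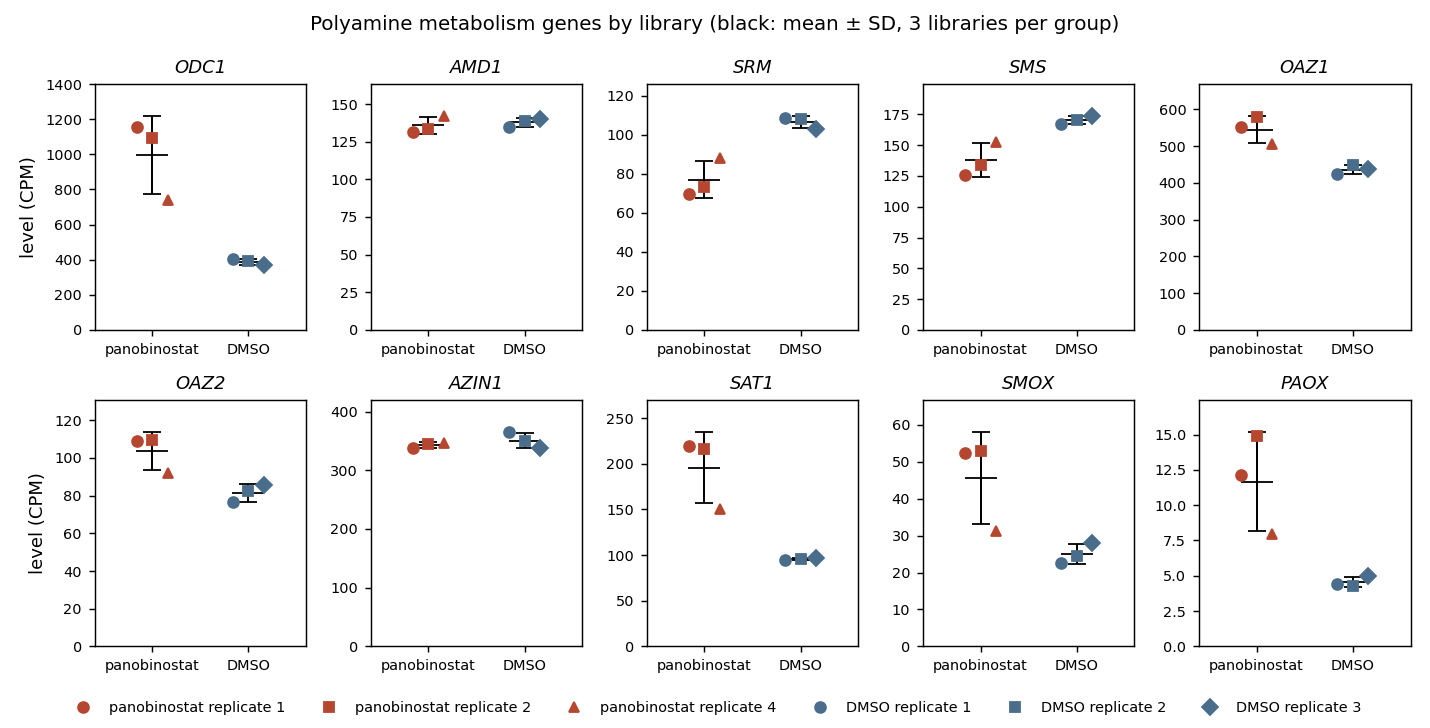
Level of each polyamine gene in every library, in CPM (counts per 1000000 of the scaled library total), on linear axes that start at 0, with panobinostat left of DMSO. Symbols are libraries, and black bars are the group mean ± SD (n = 3 each). ODC1, SAT1, SMOX and PAOX stand above their DMSO libraries in each panobinostat library, with panobinostat replicate 4 the lowest of the treated ones, and AMD1 and AZIN1 overlap between groups.

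Levels are given in CPM, counts per 1000000 of the scaled library total. ODC1 (chromosome 2, 10439968 to 10448327, minus strand, GRCh38.p14), the entry enzyme of the pathway and one of the best-known targets of MYC, had the highest CPM of the members with panobinostat, while with DMSO it came after OAZ1. It stood at 1154, 1095 and 741 CPM in panobinostat replicates 1, 2 and 4, against 404, 392 and 369.9 CPM in DMSO replicates 1, 2 and 3. Every panobinostat library lay above every DMSO library, and panobinostat replicate 4 lay well below the other treated ones. The means were 997 ± 223 CPM with panobinostat and 389 ± 17.3 CPM with DMSO (SD, n = 3 each), a 2.57-fold rise (log2 fold change 1.36 ± 0.15 SE, edgeR adjusted p 0.000727). With panobinostat replicate 4 left out the fitted log2 change was 1.52. By mean level ODC1 ranked above 99.0% of tested genes, and its log2 fold change was larger than that of 93.2% of them. The upstream end of its RefSeq promoter window is shown because no other member with a promoter sequence in the RefSeq table used rose as far. An annotated exon begins where this stretch ends, and the bases from there to the start at 10448327 are not printed. Capitals in the first stretch mark its GC boxes (GGGCGG), the motif of SP1. The second stretch lies in the gene, just before and after a second RefSeq start at 10448012, where no exon of GENCODE release 29 lies, and its capitals mark a pair of CACGTG E-boxes, the motif of MYC and MAX dimers. Both read 5′ to 3′ on the minus strand, at chr2:10448505-10448577 and chr2:10447999-10448044:
ODC1, upstream of the first start: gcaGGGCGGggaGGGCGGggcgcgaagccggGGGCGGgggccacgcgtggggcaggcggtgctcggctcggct
ODC1, around the second start: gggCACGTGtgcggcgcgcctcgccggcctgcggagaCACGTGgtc

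Both enzymes that add aminopropyl groups fell. SRM (chromosome 1, 11054589 to 11060018, minus strand), which makes spermidine from putrescine, stood at 69.8, 73.3 and 87.9 CPM in panobinostat replicates 1, 2 and 4, against 109, 108 and 103 CPM in the DMSO libraries. No panobinostat library reached the lowest DMSO library, and replicate 4 came closest. The means of SRM were 77.0 ± 9.58 CPM with panobinostat and 106 ± 3.23 CPM with DMSO (SD, n = 3 each), a log2 fold change of −0.47 ± 0.10 (SE, edgeR adjusted p 0.00491) and −0.60 without panobinostat replicate 4. SMS (chromosome X, 21940709 to 21994837, plus strand), which makes spermine from spermidine, stood at 126, 134 and 153 CPM in panobinostat replicates 1, 2 and 4, against 167, 170.2 and 174 CPM in the DMSO libraries. The order of the treated libraries was the same as for SRM, and the groups did not overlap. The fitted change of SMS was −0.31 ± 0.08 on the log2 scale (SE, edgeR adjusted p 0.0130), and −0.41 without panobinostat replicate 4. These are modest falls: 20.4% of tested genes had a lower log2 fold change than SRM, and 29.3% than SMS. AMD1 (chromosome 6, 110814617 to 110895713, plus strand) stood at 132, 134 and 142 CPM in panobinostat replicates 1, 2 and 4, against 135, 139 and 140.1 CPM in the DMSO libraries. These ranges overlap, and the fitted log2 fold change was −0.02 ± 0.06 (SE, edgeR adjusted p 0.784). AMD1 is also the enzyme whose product both synthases consume, so among the 4 genes of synthesis 1 rose, 2 fell and 1 was not called.

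The sequence before the start of SRM is shown as that of the member with the largest fall. It holds 1 CACGTG E-box, several GC boxes and a pair of CCAAT boxes, the motif of the factor NF-Y, all in capitals whichever strand carries them (ATTGG and CCGCCC are the same motifs read on the other strand). It reads 5′ to 3′ on the minus strand at chr1:11060025-11060268:
SRM, before the start: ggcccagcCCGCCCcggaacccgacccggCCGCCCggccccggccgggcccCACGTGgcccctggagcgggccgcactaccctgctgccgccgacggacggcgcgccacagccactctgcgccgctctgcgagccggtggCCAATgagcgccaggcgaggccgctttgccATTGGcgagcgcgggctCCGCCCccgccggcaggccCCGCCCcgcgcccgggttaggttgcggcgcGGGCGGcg

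All 3 catabolic genes rose. SAT1 (chromosome X, 23783173 to 23786210, plus strand), the spermidine and spermine acetyltransferase that starts export and breakdown, stood at 220.0, 216 and 151 CPM in panobinostat replicates 1, 2 and 4, against 94.3, 95.8 and 97.1 CPM in the DMSO libraries. The DMSO libraries were almost level, and each panobinostat library lay above all of them. The mean of SAT1 was 196 ± 38.9 CPM with panobinostat and 95.7 ± 1.41 CPM with DMSO (SD, n = 3 each), a 2.05-fold rise (log2 fold change 1.03 ± 0.14 SE, edgeR adjusted p 0.00121; 1.18 without panobinostat replicate 4). PAOX (chromosome 10, 133379262 to 133391694, plus strand), the peroxisomal oxidase of acetylated polyamines, was the least abundant member, at 12.2, 14.9 and 7.98 CPM in panobinostat replicates 1, 2 and 4, against 4.41, 4.27 and 4.97 CPM in the DMSO libraries. Its rise of 2.57-fold matched that of ODC1 in size on a far lower level (log2 fold change 1.36 ± 0.24 SE, edgeR adjusted p 0.00305; 1.52 without panobinostat replicate 4). It rests on 319 counts over the panobinostat libraries and 114 over the DMSO libraries, with 30 in the poorest library, so its error is the widest of the members. SMOX (chromosome 20, 4148828 to 4187727, plus strand), the spermine oxidase, stood at 52.4, 52.9 and 31.2 CPM in panobinostat replicates 1, 2 and 4, against 22.5, 24.5 and 27.9 CPM in the DMSO libraries. Panobinostat replicate 4 lay just above the highest DMSO library. The means of SMOX were 45.5 ± 12.4 CPM with panobinostat and 25.0 ± 2.77 CPM with DMSO (SD, n = 3 each), a 1.84-fold rise (log2 fold change 0.88 ± 0.20 SE, edgeR adjusted p 0.00747; 1.09 without panobinostat replicate 4).

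The promoter of SAT1 is shown because it differs in its motifs from those of ODC1 and SRM, which also changed: no stretch of it matches GGGCGG or CACGTG, and the 2 CCAAT boxes, in capitals and once on the opposite strand as ATTGG, are its only matches to the 6 motifs searched. It reads 5′ to 3′ on the plus strand at chrX:23782923-23783172:
SAT1, before the start: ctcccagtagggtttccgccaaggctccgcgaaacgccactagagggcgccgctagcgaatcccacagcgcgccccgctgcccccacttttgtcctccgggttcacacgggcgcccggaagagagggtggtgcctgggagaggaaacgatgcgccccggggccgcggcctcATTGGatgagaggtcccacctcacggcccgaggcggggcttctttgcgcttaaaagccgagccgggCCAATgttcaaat

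The sequences come from RefSeq on GRCh38.p14. A window of 300 bases, 250 before and 50 after a start, was available for 7 of the 10 members, and not for SMOX, PAOX and AZIN1. The stretches printed are cut where an annotated exon begins. The motifs were searched on both strands of the whole windows, and GGGCGG stood in 45.0% of 35116 windows of the same length, CCAAT in 34.6%, TGACNNNGC (the core of the antioxidant response element) in 13.3%, TATAAA in 11.5%, CACGTG in 7.26% and TGACGTCA (the cyclic AMP response element) in 1.85%. The first ODC1 window held 6 matches to GGGCGG and 1 to TGACNNNGC, and the second held 4 to GGGCGG and 2 to CACGTG. The SRM window held 6 matches to GGGCGG, 2 to CCAAT and 1 to CACGTG. Among the others, OAZ1 had 3 matches to GGGCGG, 2 to CCAAT and 1 to TATAAA, OAZ2 had 3 to GGGCGG, and SMS had 1 to GGGCGG and 1 to CCAAT. The 3 AMD1 windows had between 1 and 3 matches to GGGCGG, and 1 of them had a match to CCAAT. The E-box CACGTG thus stood near a start of ODC1, which rose, and of SRM, which fell, and the TGACGTCA element stood in none of these windows. A match of letters is a description and not a measured binding site.

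Both antizymes rose, each by less than 2-fold. OAZ1 (chromosome 19, 2269486 to 2273488, plus strand), the main antizyme, stood at 553, 578 and 504 CPM in panobinostat replicates 1, 2 and 4, against 424, 448 and 436 CPM in the DMSO libraries. The groups did not overlap, and the rise was 1.25-fold (log2 fold change 0.32 ± 0.07 SE, edgeR adjusted p 0.00472; 0.36 without panobinostat replicate 4). OAZ2 (chromosome 15, 64687574 to 64703281, minus strand), a second antizyme with the same frameshift, stood at 109, 109.7 and 92.0 CPM in panobinostat replicates 1, 2 and 4, against 76.4, 82.3 and 85.7 CPM in the DMSO libraries. The rise of OAZ2 was 1.27-fold (log2 fold change 0.35 ± 0.09 SE, edgeR adjusted p 0.0121), with a log2 fold change of 0.43 without panobinostat replicate 4. Its call was lost without panobinostat replicate 1 (edgeR adjusted p 0.0501) and without DMSO replicate 1 (0.0623). Over all alternatives its adjusted p ran from 8.35e-17, in the fit with a replicate block, to 0.0623. The treatment estimate of the block fit rests on replicates 1 and 2 of each group only. AZIN1 (chromosome 8, 102826302 to 102864200, minus strand) stood at 337, 345 and 347 CPM in panobinostat replicates 1, 2 and 4, against 365, 349 and 338 CPM in the DMSO libraries. Its groups overlapped, and the fitted log2 fold change was −0.03 ± 0.06 (SE, edgeR adjusted p 0.646). Its means were 343 ± 5.06 CPM with panobinostat and 350.5 ± 13.4 CPM with DMSO (SD, n = 3 each).

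**Figure D2:**
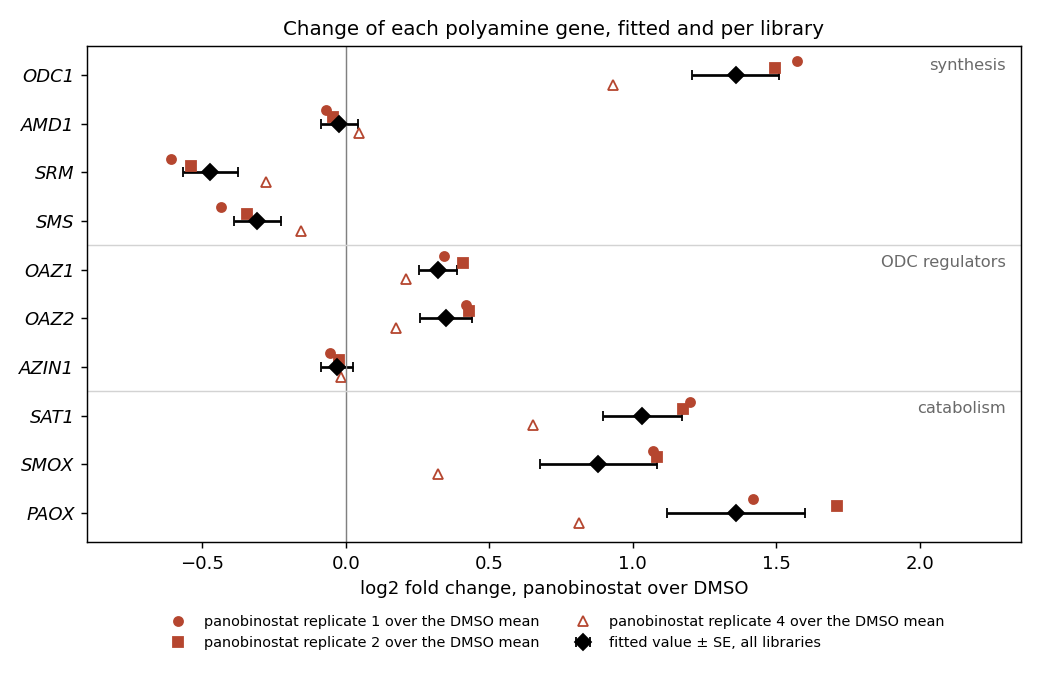
Change of each polyamine gene with panobinostat over DMSO on the log2 scale. Black diamonds are the fitted values ± SE over all 6 libraries, and red symbols are single panobinostat libraries over the DMSO mean, with replicate 4 drawn open. ODC1 and PAOX lie at 1.36 and SRM at −0.47, and for the 8 called genes replicate 4 lies nearest to 0.

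The shortfall of panobinostat replicate 4 varied in size between members, but each share below rests on that single library, has no error, and differences between members were not tested. Over the DMSO mean, the log2 change of ODC1 was 1.57, 1.49 and 0.93 in panobinostat replicates 1, 2 and 4, so that replicate 4 showed 60.8% of the mean change of the other treated libraries. For OAZ1, SAT1, PAOX and SRM this share was 56.1%, 55.1%, 51.8% and 48.2%. It was 41.2% for OAZ2, 40.0% for SMS and 29.7% for SMOX, whose log2 changes were 1.07, 1.09 and 0.32. All 8 called members thus moved the same way in each panobinostat library, and replicate 4 moved least for every one of them. As they were called with replicate 4 included, a shared direction there is partly set by that choice.

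**Figure D3:**
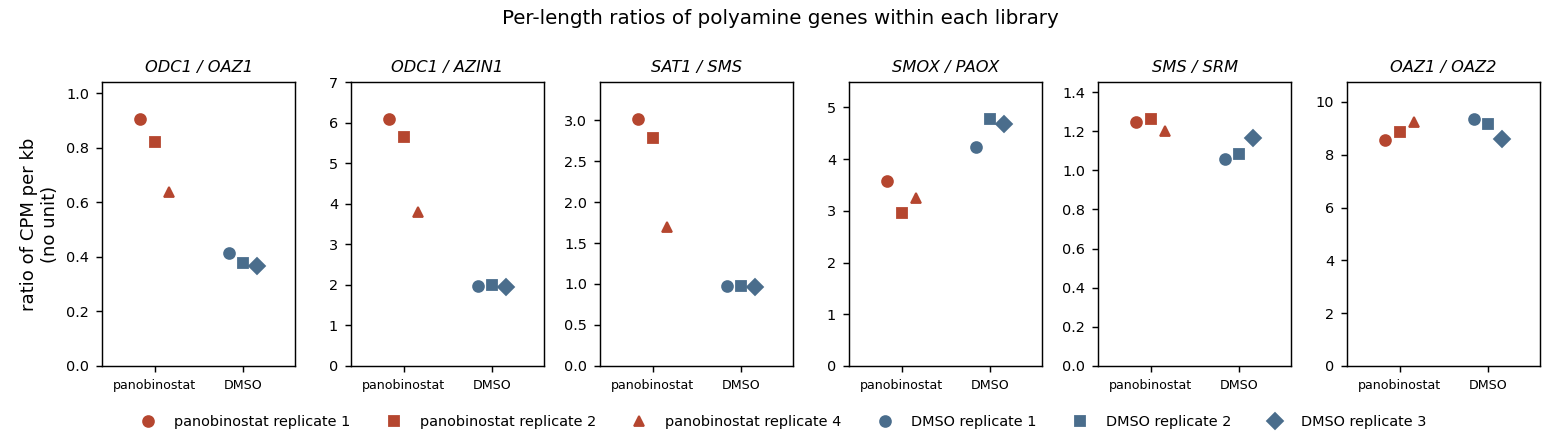
Ratio of the per-length levels of pairs of polyamine genes within each library (no unit), on axes that start at 0, with panobinostat left of DMSO. Points are libraries. The ODC1 to OAZ1 ratio is 0.636 to 0.904 with panobinostat and 0.367 to 0.413 with DMSO, and the OAZ1 to OAZ2 ratio overlaps between groups.

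To compare genes with each other, levels were divided by the length of each gene's principal transcript in GENCODE release 29. On this scale, CPM per kilobase, the order with panobinostat was OAZ1 (475), ODC1 (376), SAT1 (184), SMS (75.0), AZIN1 (72.7), SRM (60.8), OAZ2 (53.5), AMD1 (39.5), SMOX (20.4) and PAOX (6.28). With DMSO the order was OAZ1 (379.8), ODC1 (147), SMS (92.7), SAT1 (89.9), SRM (84.1), AZIN1 (74.2), OAZ2 (42.1), AMD1 (40.1), SMOX (11.2) and PAOX (2.45). Among neighbours in these orders, SMS and AZIN1 and then SRM and OAZ2 overlapped between libraries with panobinostat, as SMS and SAT1 and then OAZ2 and AMD1 did with DMSO. SAT1 thus lay between the synthases SMS and SRM with DMSO and above both of them with panobinostat. With the union of all exons as the length, SAT1 was also above both with panobinostat (78.3, against 63.8 for SMS and 40.6 for SRM) but below both with DMSO (38.3, against 78.9 and 56.1).

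Ratios within a library do not depend on the library's scaling. The ratio of ODC1 to OAZ1, the target over its antizyme, was 0.904, 0.820 and 0.636 in panobinostat replicates 1, 2 and 4, against 0.413, 0.379 and 0.367 in DMSO replicates 1, 2 and 3. Antizyme mRNA was thus the more abundant in every library on this scale, and the gap was narrower in each panobinostat library. The length used matters here: with the union of all exons the mean ratio was 2.10 with panobinostat and 1.03 with DMSO, which puts ODC1 first. The ratio of ODC1 to AZIN1 was 5.18 ± 1.21 with panobinostat and 1.97 ± 0.0246 with DMSO (SD, n = 3 each). The ratio of SAT1 to SMS, acetylation over the last step of synthesis, was 3.01, 2.78 and 1.70 in panobinostat replicates 1, 2 and 4, against 0.975, 0.971 and 0.963 in the DMSO libraries. It was below 1 in each DMSO library and above 1 in each panobinostat library, while with the union of exons its means were 1.25 with panobinostat and 0.486 with DMSO. Both oxidases rose, but the ratio of SMOX to PAOX was lower with panobinostat, at 3.26 ± 0.313 against 4.56 ± 0.284 with DMSO (SD, n = 3 each), without overlap. The ratio of SMS to SRM was 1.25, 1.26 and 1.20 in the panobinostat libraries and 1.06, 1.09 and 1.17 in the DMSO libraries, which do not overlap but lie close. The antizymes kept their proportion within the spread: OAZ1 to OAZ2 was 8.55, 8.88 and 9.24 in the panobinostat libraries and 9.34, 9.17 and 8.58 in the DMSO libraries, which overlap. With 3 libraries a group an exact permutation test cannot go below 0.1, and these ratios were therefore not tested.

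Some members overlap other genes or have copies. The shared bases given here are the longest single stretch of exon overlap, not the total over a pair of genes. On the opposite strand OAZ1 shares 236 exonic bases with JSRP1, which had 11 counts in the 6 libraries, and AZIN1 shares 344 with AZIN1-AS1, which had 56, against at least 2812 counts of OAZ1 and 1877 of AZIN1 in every library. OAZ2 shares 554 bases with an antisense gene, AC100830.3, that has no row, and as no source used here says whether reads were counted by strand, reads of this pair cannot be told apart. OAZ1 also shares 220 exonic bases with AC005258.1, a gene on the same strand that has no row. Reads of that stretch cannot be told apart by strand, whichever way they were counted. The pseudogenes AMD1P3 and SRMP2 had 4 and 0 counts, and AMD1P1, AMD1P2, AMD1P4 and SRMP1 have no row. PAOX shares 117 bases with AL360181.3, which had 3 counts.

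**Figure D4:**
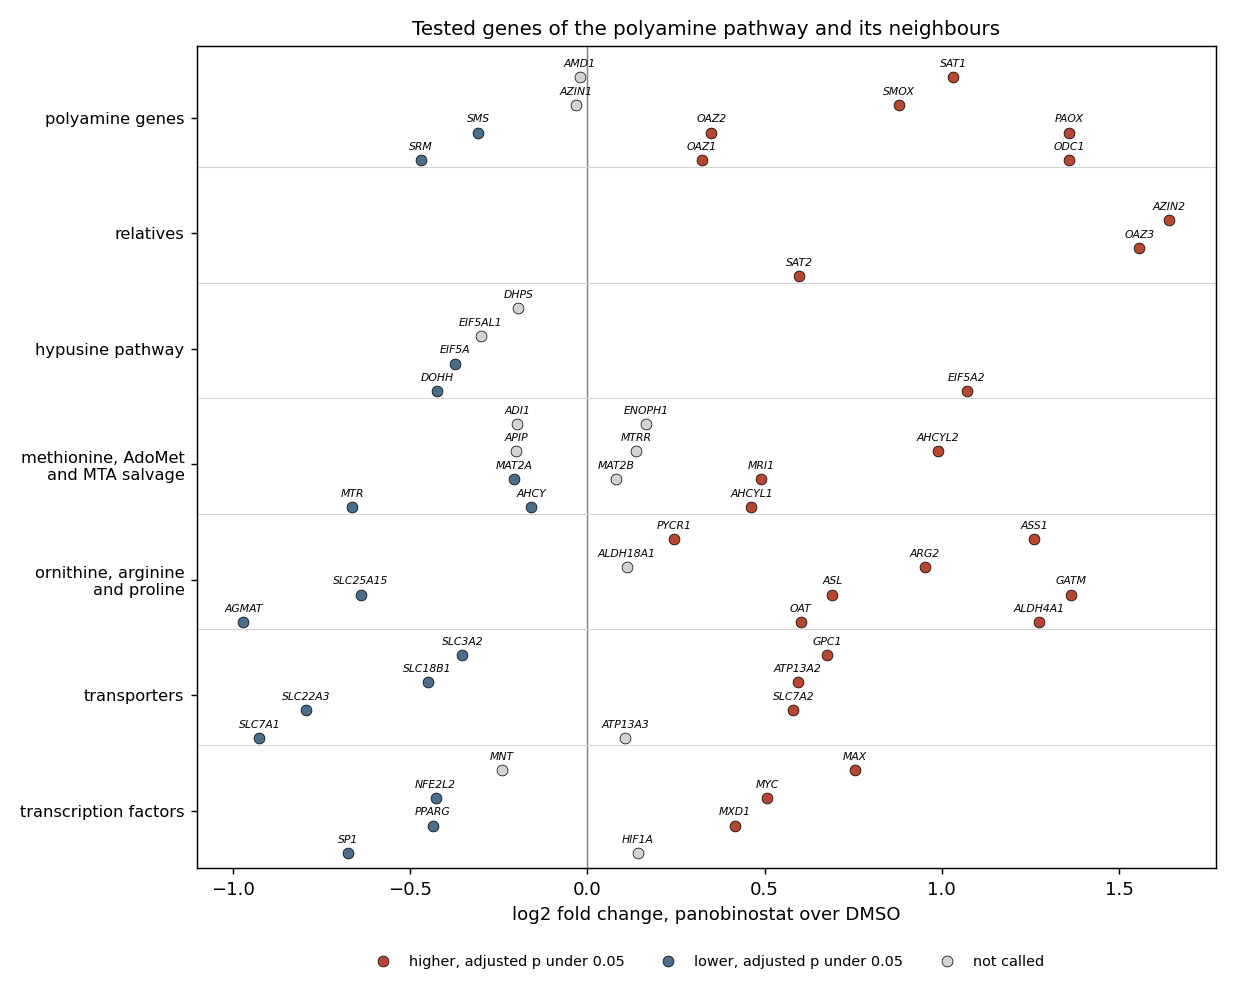
Log2 fold change, panobinostat over DMSO, of tested genes of polyamine metabolism and of lists around it (rows). Red points were called higher and blue ones lower at an edgeR adjusted p under 0.05, grey ones were not called, and the height within a row only separates labels. All 3 tested relatives of the members lie to the right, with AZIN2 at 1.64, while the other lists hold genes on both sides of 0.

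All 3 tested relatives of the members were called higher, beside 30.2% of all tested genes. AZIN2, a second antizyme inhibitor, stood at 36.5, 34.0 and 23.9 CPM in panobinostat replicates 1, 2 and 4, against 10.4, 9.39 and 10.6 CPM in the DMSO libraries. Its groups were far apart, with a 3.12-fold rise (log2 fold change 1.64 ± 0.18 SE, edgeR adjusted p 0.00069). OAZ3, known as the antizyme of the testis, rose on a low level, 4.68 ± 1.43 CPM with panobinostat and 1.66 ± 0.878 CPM with DMSO (SD, n = 3 each; edgeR adjusted p 0.00991). The filter keeps a gene that is low with DMSO if panobinostat raises it, so OAZ3 may have been tested only for its panobinostat values. SAT2, a relative of SAT1 that acts mainly on thialysine, averaged 29.6 ± 3.08 CPM with panobinostat and 19.6 ± 0.895 CPM with DMSO (SD, n = 3 each; log2 fold change 0.60 ± 0.11 SE, edgeR adjusted p 0.00377). SATL1 has no row among the genes counted and is not analysed here.

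Spermidine is also the donor for hypusine, the modified lysine that makes the translation factor eIF5A active. Of the 5 genes of this list 1 rose, 2 fell and 2 were not called, with a median log2 fold change of −0.30. EIF5A2, the second form of the factor, stood at 110.2, 119 and 82.3 CPM in panobinostat replicates 1, 2 and 4, against 50.5, 50.5 and 47.0 CPM in the DMSO libraries, a 2.10-fold rise (edgeR adjusted p 0.000973). The main form EIF5A moved the other way, with 632 ± 81.7 CPM with panobinostat and 820 ± 52.3 CPM with DMSO (SD, n = 3 each; log2 fold change −0.38 ± 0.10 SE, edgeR adjusted p 0.0115). The fall of EIF5A was not called once DMSO replicate 2 was left out (edgeR adjusted p 0.0510, the highest of its alternatives). These ran from 6.52e-79 in the fit with a replicate block, whose treatment estimate rests on replicates 1 and 2 of each group only. Reads of its near copy EIF5AL1 may be split with it, so both are uncertain. DOHH, the hydroxylase that completes hypusine, fell by 0.42 on the log2 scale (SE 0.11, edgeR adjusted p 0.0122). DHPS, the synthase of the first step, had a log2 fold change of −0.20 ± 0.09 (SE, edgeR adjusted p 0.0855) and EIF5AL1 one of −0.30 ± 0.12 (SE, 0.0540). Without panobinostat replicate 4 both were called lower, so that the list then held 1 gene higher and 4 lower.

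A further list covers methionine, S-adenosylmethionine and the salvage of methylthioadenosine, the by-product of both synthases. It also holds the adenosylhomocysteinase-like genes AHCYL1 and AHCYL2, which are not steps of that salvage. Of 11 tested of 14 listed, 3 rose, 3 fell and 5 were not called. The largest rises were those of AHCYL2 (log2 fold change 0.99 ± 0.17 SE), an adenosylhomocysteinase-like protein, MRI1 (0.49 ± 0.11), an isomerase of methylthioadenosine salvage, and AHCYL1 (0.46 ± 0.07). MTR, methionine synthase, averaged 68.5 ± 16.9 CPM with panobinostat and 108 ± 1.88 CPM with DMSO (SD, n = 3 each; log2 fold change −0.66 ± 0.15 SE, edgeR adjusted p 0.00724). MAT2A, which makes S-adenosylmethionine, and AHCY had small falls, −0.21 ± 0.06 and −0.16 ± 0.06 on the log2 scale (SE), that lost their calls under 3 and 7 of the 13 alternatives, at adjusted p-values up to 0.0753 and 0.123. MTAP, the first enzyme of methylthioadenosine salvage, has no row among the genes counted and is not analysed here. Without panobinostat replicate 4 the counts were 5 higher, 5 lower and 1 not called.

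Of a list of genes of ornithine, arginine and proline metabolism, 11 of 19 passed the filter, of which 7 rose, 3 fell and 1 was not called. ASS1, argininosuccinate synthase, stood at 20.9, 17.7 and 11.9 CPM in panobinostat replicates 1, 2 and 4, against 7.29, 5.55 and 8.53 CPM in the DMSO libraries (log2 fold change 1.26 ± 0.24 SE, edgeR adjusted p 0.00393). ALDH4A1, which oxidises an intermediate of proline and ornithine breakdown to glutamate, had a log2 fold change of 1.27 ± 0.24 (SE, edgeR adjusted p 0.00350). GATM, which releases ornithine while making the precursor of creatine, was near the filter at 2.33 ± 0.196 CPM with panobinostat and 0.978 ± 0.509 CPM with DMSO (SD, n = 3 each). Its log2 fold change was 1.36 ± 0.40 (SE, edgeR adjusted p 0.0183), and 0.87 with no call without DMSO replicate 1 (edgeR adjusted p 0.0665, the highest of its alternatives). The other 4 called higher, named here after their values were seen, were the arginase ARG2, the ornithine aminotransferase OAT, ASL and PYCR1. Among the genes called lower were AGMAT, annotated as agmatinase (log2 fold change −0.97 ± 0.17 SE), and SLC25A15, the mitochondrial ornithine carrier (−0.64 ± 0.17), which was just not called without panobinostat replicate 1. The filter keeps a gene near absent with DMSO if panobinostat raises it, so the counts of this list are of tested genes and not of all 19.

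Transporters of polyamines and of their amino acid precursors moved both ways: of 8 tested of 15 listed, 3 rose, 4 fell and 1 was not called. SLC7A1, which imports arginine and ornithine, stood at 160, 153 and 274 CPM in panobinostat replicates 1, 2 and 4, against 382, 359 and 371 CPM in the DMSO libraries. Replicate 4 lay between the other treated libraries and DMSO, and the groups did not overlap (log2 fold change −0.93 ± 0.20 SE, edgeR adjusted p 0.00624; 0.0758 and not called when no filter on low counts was used). SLC7A2, which carries the same amino acids, rose, at 67.0 ± 9.84 CPM with panobinostat and 45.0 ± 3.50 CPM with DMSO (SD, n = 3 each; edgeR adjusted p 0.00531). ATP13A2, the polyamine exporter of lysosomes, and GPC1, a glypican linked to polyamine uptake, had log2 fold changes of 0.59 ± 0.13 and 0.68 ± 0.15 (SE). SLC22A3, an organic cation transporter, fell by 0.79 on the log2 scale (SE 0.17), and SLC18B1, the vesicular polyamine carrier, had a change of −0.45 ± 0.14 (SE, edgeR adjusted p 0.0253) that lost its call under 5 of the 13 alternatives, at up to 0.0960. SLC3A2 was the remaining gene called lower. Without panobinostat replicate 4 there were 9 tested, of which 5 were higher and 4 lower.

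Of 10 transcription factors known at ODC1 or SAT1, 9 were tested, of which 3 rose, 4 fell and 2 were not called. MYC stood at 368, 379 and 317 CPM in panobinostat replicates 1, 2 and 4, against 239, 256 and 255 CPM in the DMSO libraries, and every panobinostat library lay above every DMSO library. Its rise was 1.42-fold (log2 fold change 0.51 ± 0.08 SE, edgeR adjusted p 0.00202), and that of its partner MAX was 1.69-fold (0.75 ± 0.13, edgeR adjusted p 0.0029). MXD1, which binds MAX in place of MYC, had a log2 fold change of 0.42 ± 0.11 (SE, edgeR adjusted p 0.0137) and lost its call under 4 of the 13 alternatives, at up to 0.0670. SP1, which binds GC boxes, averaged 90.0 ± 19.1 CPM with panobinostat and 143 ± 3.93 CPM with DMSO (SD, n = 3 each; log2 fold change −0.67 ± 0.13 SE, edgeR adjusted p 0.00453). PPARG fell by 0.44 on the log2 scale (SE 0.08, edgeR adjusted p 0.00292), and NFE2L2, the factor of the antioxidant response element, was also called lower. Whether these factors act on the members was not tested.

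By the pattern over the 6 libraries, the genes most like PAOX, the member with the largest fitted rise, were ANKRD42, SPEG and ABTB2 among 9781 genes with a symbol and at least 10 CPM. Their root mean square distances on the centred log2 scale were 0.0675, 0.0760 and 0.0806. Those most like SRM, the member with the largest fall, were TRA2B, SMARCA1 and SRSF6, at 0.0133, 0.0195 and 0.0214. The distance takes in panobinostat replicate 4, so a like position of that library follows from the choice. TRA2B stood at 230.1, 235 and 286 CPM in panobinostat replicates 1, 2 and 4, against 354, 348 and 333 CPM in the DMSO libraries.

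The authors' deposited table holds their own comparison, without naming which group is on top. In the authors' deposited table the log2 fold changes of the 8 members called here had the same sign as in the fit above and an adjusted p under 0.05, and those of AMD1 and AZIN1 did not pass. The authors' deposited table gives ODC1 1.08, PAOX 1.06, SAT1 0.84 and SMOX 0.71, and SRM −0.40. These may rest on more libraries than the 6 used here, since the sum column of that table exceeds their counts, so their sizes are not compared with the fit.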

How the data were processed

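RNA-seq of 6 MDA-MB-231 libraries was used. Per the labels' protocols, RNA was extracted on columns and a stranded mRNA kit was used. The authors deposited raw counts of reads per gene, not normalised. The build is GRCh38.p14 and FastQC was run, per the submitters' processing notes. No source used here names the aligner, the annotation or the strand setting. The deposited table also holds a sum column that exceeds the counts of the 6 libraries (further libraries are not analysed here) and the authors' comparison: a mean signal, log2 fold changes with SE, a score and p-values. These are keyed by a second identifier column and were matched by identifier. No source used here names their tool.

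The test was edgeR's quasi-likelihood test on the counts (edgeR 4.0.16, R 4.3.3, TMM, robust fit, filterByExpr, treatment as the only term). The filter kept 13341 of 30051 genes. Calls used a Benjamini-Hochberg adjusted p under 0.05 over all tested genes. SE came from the estimate and its F statistic. CPM are counts over the library total times its TMM factor, times 1000000. The biological coefficient of variation came to 0.112, falling to 0.0283 when panobinostat replicate 4 was left out. No replicate pair agreed within sampling noise: chi-square per gene was 1.57 to 20.9 between panobinostat libraries and 1.23 to 1.74 between DMSO libraries. If the repeats share a culture, p-values measure only the spread between these libraries.

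Of the gene symbols, 18982 came from the file and 10760 from a reference table. Coordinates and promoters are from RefSeq GRCh38.p14, and transcript lengths and overlaps from GENCODE release 29. Alternatives were library size only, upper-quartile factors or DESeq2 1.42.0 size factors, no filter, DESeq2's Wald test, limma 3.58.1 voom with library quality weights, a replicate block, and leaving out each library. The members and lists were chosen with earlier results of these data known. Named genes are all members and, from each list, the called genes with the 3 largest rises and falls at 1 CPM or more, or every gene of a list of at most 5. A few genes so chosen are not reported here but are included where lists are counted. Python 3.11.15 was also used.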

Additional observations from a re-analysis of the deposited data

How the results depend on the processing

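Over the 13 alternatives the count of members called higher was 5 or 6 and of members called lower 2 or 3, and no called member changed sign. Leaving out each library in turn gave 5 to 6 members higher and 2 lower, and 3106 to 5171 of all tested genes higher and 2624 to 5078 lower. OAZ2 was the member lost, without panobinostat replicate 1 or DMSO replicate 1. With a block for the replicate number, 6 members were higher and 3 lower, since AZIN1 was then called at a log2 change of −0.08 (edgeR adjusted p 0.0235, in a range over alternatives up to 0.986), with 5031 genes higher and 4950 lower in all. In that fit the treatment estimate rests on replicates 1 and 2, as panobinostat replicate 4 and DMSO replicate 3 have no same-numbered partner. Its call of AZIN1 therefore does not draw on all libraries. The labels do not say that equal numbers pair libraries, and the deviations of same-numbered libraries had correlations of 0.0514 and 0.00807. AMD1 ran from −0.08 to 0.01 on the log2 scale and was never called. Other scalings gave 3958 to 4273 genes higher. Levels between genes depend on the transcript length used, an alternative added after the data were seen. Depth limits PAOX, with 30 counts in one library.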

Other observations

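ADI1, an enzyme of methylthioadenosine salvage singled out after its values were seen, did not follow its group in panobinostat replicate 4. It stood at 28.1, 23.5 and 59.5 CPM in panobinostat replicates 1, 2 and 4, against 44.3, 40.0 and 42.2 CPM in DMSO replicates 1, 2 and 3. Panobinostat replicates 1 and 2 lay below every DMSO library and replicate 4 above every one. The log2 fold change over all libraries was −0.20 ± 0.30 (SE, edgeR adjusted p 0.592), and without panobinostat replicate 4 it was −0.68 ± 0.08 (SE, edgeR adjusted p 1.15e-09). The 8 called polyamine genes moved the same way in replicate 4 as in the other treated libraries. They were called with replicate 4 included, so a gene that reversed there was less likely to be among them. AMD1, a member not called, had log2 changes of −0.07, −0.04 and 0.05 in panobinostat replicates 1, 2 and 4 over the DMSO mean.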
